A study of Homo sapiens with 2 samples.

Results

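The genes described here are 31 genes of cholesterol and fatty acid synthesis that sterol regulatory element-binding proteins (SREBPs) control, together with genes of the SREBP machinery itself. They were taken by symbol from a fixed list, which was chosen with earlier results of these data known. All 31 were found among the 19198 named genes of the deposited tables. Gene expression had been profiled by mRNA sequencing of polyA RNA in 2 cultures labelled A549, the name of a widely used cancer cell line from a human lung adenocarcinoma. The culture called A549-NICD1 overexpressed NICD1, the NOTCH1 fragment that enters the nucleus after receptor activation, and A549-Vector was its VECTOR control. The study's methods describe stable lines made by viral infection and antibiotic selection, kept in medium with fetal bovine serum, and do not say whether a line was a clone or a pool. With only 1 library in each group, the differences have no replicate check, no test was possible and no p-value is given.

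Cells make cholesterol from acetyl-CoA through mevalonate, squalene and lanosterol, and make fatty acids from the same acetyl-CoA. SREBPs are transcription factors held in the endoplasmic reticulum membrane by SCAP and the INSIG proteins. When membrane sterol is low, SCAP carries them to the Golgi, where proteases release the part that enters the nucleus and raises the genes of both pathways. INSIG1 is itself such a target, so its mRNA commonly follows the activity of the pathway it restrains.

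Depth was inferred from the steps of the values, as 48528434 reads for A549-NICD1 and 48602848 for A549-Vector. The reads and intervals below depend on it. Levels are FPKM, reads scaled by gene length and by depth, which allows comparison between genes. Differences are log2 of A549-NICD1 over A549-Vector after scaling, with 0.1 FPKM added to each level. The interval given with a difference is the 95% Clopper-Pearson one, which takes in counting error and nothing else. The overexpressed gene followed the labels, with NOTCH1 at 5.40 FPKM in A549-Vector against 2865 FPKM in A549-NICD1. Of 13 lung epithelial markers listed for A549 cells, 8 were under 1 FPKM in both libraries, and KRT7, KRT19 and FGB were among those listed at 0 in both. Of 7 markers listed for HEK293, a kidney-derived embryonic line, 6 reached 1 FPKM in both. Summed over each list, the A549 markers were at 18.0 FPKM in A549-Vector against 19.0 FPKM in A549-NICD1. The HEK293 markers summed to 213 and 207 FPKM in the same order. Single genes weighed heavily in both sums, ANXA1 of the A549 markers at 11.1 and 11.4 FPKM and CDKN2A of the HEK293 markers at 139 and 138 FPKM. The HEK293 markers PAX2, SOX11, WT1 and PAX8 were each under 5 FPKM in both libraries. The part of these 2 marker lists in the results below was not tested. In such bulk RNA, fewer expressing cells and less mRNA per cell cannot be told apart.

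Most of the 31 genes were slightly lower in A549-NICD1. The log2 difference was below 0 for 28 of the 31 genes, and above 0 for 3, whereas of the 12263 genes with a mean of at least 1 FPKM 51.0% were below 0 and 49.0% above. The median log2 difference of the 31 genes was -0.22, and that of all genes tested was -0.0046. INSIG1, TM7SF2 and FDFT1 had the 3 lowest values, while PMVK, SREBF1 and NSDHL were the 3 genes above 0. No gene reached a difference of 0.5 log2 units in either direction, against 3.48% of all genes at least that much lower and 2.67% at least that much higher. Differences of 1 log2 unit, seen in 0.212% of all genes downwards and 0.644% upwards, were therefore absent from the 31. Among all genes averaging at least 5 FPKM, as all 31 genes did, 1.17% were 0.5 log2 units or more lower and 1.55% higher. At 0.3 log2 units, 9 of the 31 genes were lower (10.1% of all genes were), and 0 were higher, against 7.14%. Among genes averaging at least 5 FPKM, these shares at 0.3 log2 units were 5.82% and 5.32%. At this threshold HMGCS1 lay just inside, at -0.301, and STARD4 just outside, at -0.290. The summed level of the 31 genes was 1955 FPKM in A549-Vector against 1617 FPKM in A549-NICD1, which after scaling was 14.0% less.

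Stretches of 110 bases before the start of 5 of these genes are shown because most of the 31 genes were lower together and their promoters could be searched for shared motifs. They come from RefSeq promoters of GRCh38.p14 and read 5′ to 3′ along the gene. Capitals mark any of 3 motifs on either strand: the sterol regulatory element TCACNCCAC to which SREBPs bind, the E-box CACGTG, and CCAAT, the box of NF-Y, a factor known to act beside SREBPs. INSIG1 and TM7SF2 had the lowest differences, MSMO1 holds 3 NF-Y boxes within the stretch, SREBF2 holds the sterol regulatory element, and PMVK had the highest difference. The NF-Y box of INSIG1 lies outside the stretch shown. The stretches were picked by these traits, and whether motifs go with the direction of a difference was not tested. Of the 3 genes above 0, NSDHL holds CCAAT in its promoter, and PMVK and SREBF1 do not. The other genes found without CCAAT, CYP51A1, SCAP, INSIG2, ELOVL6 and FADS1, were below 0.
INSIG1, chr7:155297768-155297877, plus strand: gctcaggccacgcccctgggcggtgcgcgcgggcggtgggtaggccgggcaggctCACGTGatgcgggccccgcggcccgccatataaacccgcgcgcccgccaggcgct
TM7SF2, chr11:65111762-65111871, plus strand: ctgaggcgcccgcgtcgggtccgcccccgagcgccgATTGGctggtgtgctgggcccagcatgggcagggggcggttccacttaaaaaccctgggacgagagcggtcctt
MSMO1, chr4:165327530-165327639, plus strand: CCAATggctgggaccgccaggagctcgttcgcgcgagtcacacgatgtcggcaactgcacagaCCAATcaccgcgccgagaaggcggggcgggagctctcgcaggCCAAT
SREBF2, chr22:41832972-41833081, plus strand: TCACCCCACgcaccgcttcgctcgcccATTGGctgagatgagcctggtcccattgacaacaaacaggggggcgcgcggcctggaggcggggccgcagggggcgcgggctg
PMVK, chr1:154936720-154936829, minus strand: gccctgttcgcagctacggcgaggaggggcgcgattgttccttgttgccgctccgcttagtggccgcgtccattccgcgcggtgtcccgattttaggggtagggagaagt

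Promoters of 300 bases, from 250 before to 50 after the start, were found for 27 of the 31 genes (not for ACAT2, FDFT1, SQLE and FASN), and both strands were searched. A gene counted if any of its promoters held the motif, and the 27 genes had 37 promoters. CCAAT occurred in 20 of the 27, or 74.1%, against 43.6% of 9657 tested genes with a promoter. Counted by single promoter, not by gene, 34.6% of all 35116 held it. The sterol regulatory element occurred in 1 of the 27, SREBF2, against 1.502% of tested genes. The E-box occurred in LSS, SC5D, SCAP and INSIG1, that is, in 14.8% against 12.9%. The Sp1 box GGGCGG occurred in 26 of the 27, or 96.3%, against 79.0%. The site of RBPJ, the DNA-binding partner of NICD1, was searched as TGGGAA and occurred in MVK, FDPS and ACACA, which is 11.1% against 27.8%. A match describes letters in this window and is no evidence of binding. The lack of a match to these exact letters in this window does not show that a gene has no such site.

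**Figure D1:**
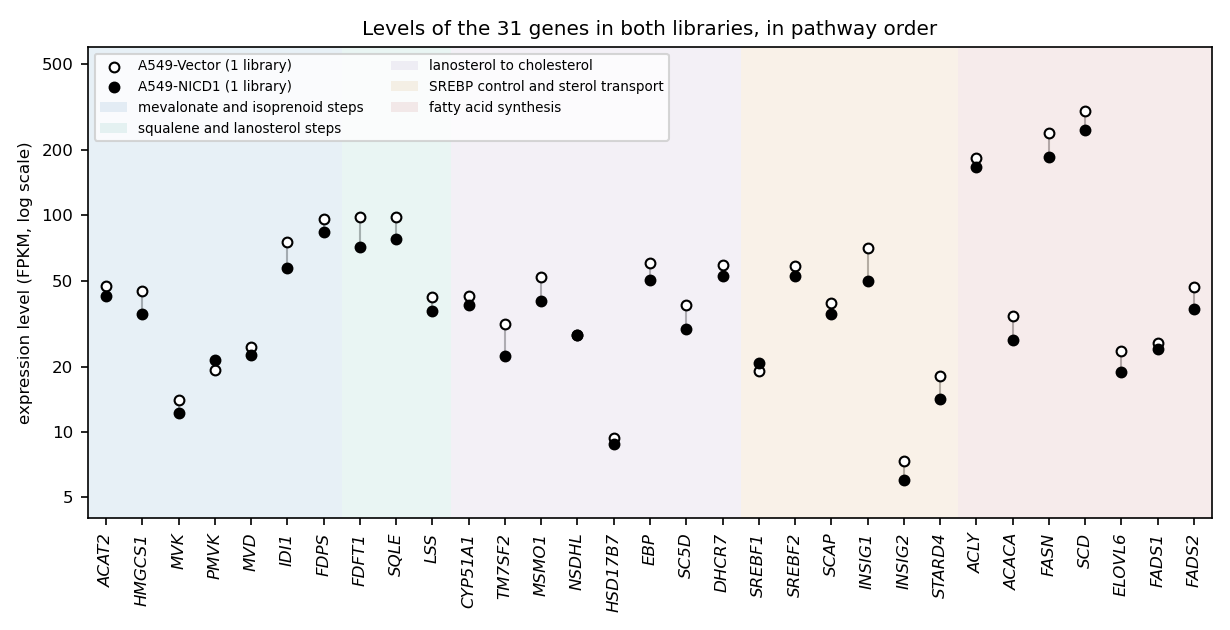
Expression level of each of the 31 genes (FPKM, log scale) in A549-Vector (open points) and A549-NICD1 (filled points), 1 library each, in pathway order, with shading by role. Levels run from 7.33 FPKM for INSIG2 to 303 FPKM for SCD in A549-Vector, and the filled point lies below the open one except for PMVK, SREBF1 and NSDHL.

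The levels kept nearly the same order in both libraries, with SCD, FASN and ACLY the highest 3 and HSD17B7 and INSIG2 the lowest 2, as the plot of levels shows. Spearman's rho of the 31 levels between the libraries was 0.988, given as a description. The highest level was 41.4 times the lowest in A549-Vector, and SCD ranked 130 among all genes there. The largest move in this order was 3 places, by INSIG1, TM7SF2 and SREBF2. Together the 31 genes took 0.507% of the summed FPKM in A549-Vector and 0.421% in A549-NICD1.

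Of the 7 genes of the mevalonate and isoprenoid steps, 6 were below 0, with a median log2 difference of -0.14. HMGCS1, the synthase that makes HMG-CoA, was at 44.9 FPKM in A549-Vector against 35.1 FPKM in A549-NICD1, a log2 difference of -0.30 (interval -0.36 to -0.25). IDI1, which isomerises isopentenyl diphosphate, was at 75.1 and 57.4 FPKM in the same order, a difference of -0.33 (interval -0.40 to -0.26). These 2 enzymes had the lowest differences of this branch. FDPS, farnesyl diphosphate synthase, was at 96.0 and 83.9 FPKM, a difference of -0.14 (interval -0.21 to -0.07). MVK, mevalonate kinase, was at 14.1 and 12.2 FPKM, a difference of -0.14 (interval -0.26 to -0.03). ACAT2, the cytosolic thiolase that joins acetyl-CoA units, was at 47.2 and 42.4 FPKM, a difference of -0.10 (interval -0.16 to -0.03). Coding genes on the other strand, SOD2 and TCP1, overlap 47.3% of the annotated exon bases of ACAT2, and although the libraries are described as strand-specific, the sources used here do not give the strand setting of the counting, so its level is uncertain. MVD, the decarboxylase that makes isopentenyl diphosphate, was at 24.8 and 22.6 FPKM, and its interval of -0.16 to 0.01 held 0. PMVK, phosphomevalonate kinase, went the other way, at 19.4 FPKM in A549-Vector against 21.5 FPKM in A549-NICD1. Its difference of 0.20 (interval 0.03 to 0.38) was the highest of the 31, and rests on at least 503 and 557 reads. MVK, PMVK and MVD act one after another, and their differences spanned both signs.

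The 3 enzymes from farnesyl diphosphate to lanosterol were all lower in A549-NICD1, with a median of -0.29 and a summed level 19.4% lower. FDFT1, squalene synthase, which commits the pathway to sterols, was at 98.8 FPKM in A549-Vector against 71.4 FPKM in A549-NICD1, a difference of -0.41 (interval -0.45 to -0.37). SQLE, squalene epoxidase, a rate-limiting oxygen-using step, was at 98.4 and 77.5 FPKM, a difference of -0.29 (interval -0.32 to -0.25). LSS, lanosterol synthase, was at 41.9 and 36.4 FPKM, a difference of -0.15 (interval -0.19 to -0.10). The intervals of these enzymes did not overlap one another.

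Of the 8 enzymes from lanosterol to cholesterol, 7 were below 0, with a median of -0.17. TM7SF2, a sterol reductase, was at 31.7 FPKM in A549-Vector against 22.4 FPKM in A549-NICD1, a difference of -0.44 (interval -0.53 to -0.35). SC5D, a sterol desaturase, was at 38.7 and 29.8 FPKM, a difference of -0.32 (interval -0.36 to -0.28). MSMO1, the methylsterol monooxygenase, was at 51.7 and 40.3 FPKM, a difference of -0.30 (interval -0.36 to -0.24). These were the 3 genes of this branch past 0.3. EBP, the sterol isomerase, was at 60.6 and 50.1 FPKM, a difference of -0.22 (interval -0.29 to -0.14). DHCR7, a reductase that gives cholesterol, was at 59.4 and 52.4 FPKM, a difference of -0.12 (interval -0.17 to -0.07). CYP51A1, the lanosterol demethylase, was at 42.3 and 38.6 FPKM, a difference of -0.08 (interval -0.13 to -0.02). For CYP51A1, 87.3% of the 100-base windows of its longest annotated transcript also occur in the overlapping gene AC000120.2, so that reads may be split between them. HSD17B7 and NSDHL, which act with MSMO1 in removing methyl groups, did not differ beyond counting error. HSD17B7 was at 9.41 and 8.76 FPKM (interval -0.24 to 0.14), and NSDHL at 27.9 and 28.0 FPKM (interval -0.03 to 0.14).

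**Figure D2:**
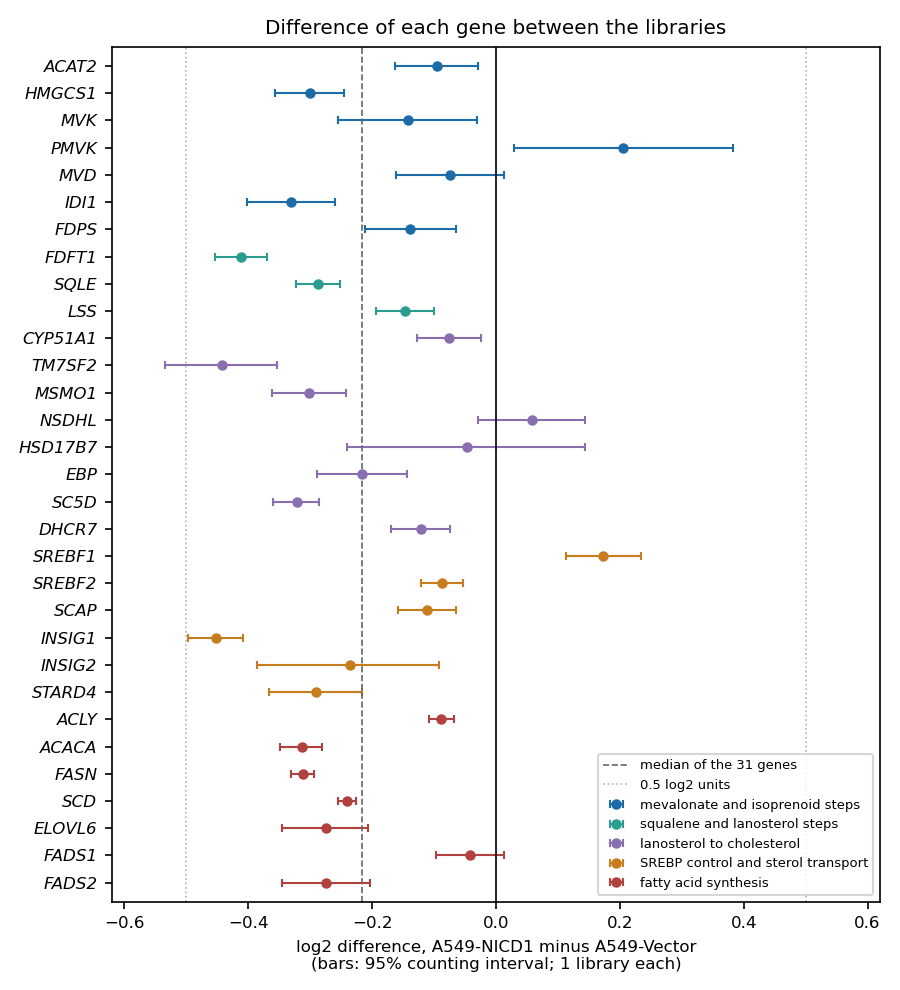
Log2 difference of each gene, A549-NICD1 minus A549-Vector (points), with its 95% counting interval (bars), coloured by role. The dashed line is the median of the 31 genes, -0.22, the dotted lines mark 0.5 log2 units, and 25 intervals lie wholly below 0 while those of PMVK and SREBF1 lie above it.

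Among the 6 genes of SREBP control and sterol transport, 5 were below 0. INSIG1, which retains SCAP and SREBP in the endoplasmic reticulum, was at 70.6 FPKM in A549-Vector against 49.6 FPKM in A549-NICD1. Its difference of -0.45 (interval -0.50 to -0.41) was the lowest of the 31, and 4.48% of all genes tested had a lower one. INSIG2, its homologue, was at 7.33 and 5.98 FPKM, a difference of -0.24 (interval -0.39 to -0.09). INSIG1 was thus 9.63 times as abundant as INSIG2 in A549-Vector and 8.30 times in A549-NICD1. STARD4, a sterol transfer protein, was at 18.1 and 14.2 FPKM, a difference of -0.29 (interval -0.37 to -0.22). SCAP, the escort protein, was at 39.4 and 35.0 FPKM, a difference of -0.11 (interval -0.16 to -0.06). The mRNAs of the factors themselves differed in direction. SREBF2, whose protein acts mainly on sterol genes, was at 58.2 and 52.7 FPKM, a difference of -0.09 (interval -0.12 to -0.05). SREBF1, whose protein acts mainly on fatty acid genes, was at 19.2 and 20.8 FPKM, a difference of 0.17 (interval 0.11 to 0.23). The ratio of SREBF1 to SREBF2 was 0.329 in A549-Vector and 0.394 in A549-NICD1. The levels pool the SREBF1 isoforms and do not show how much of either protein was cleaved.

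All 7 genes of fatty acid synthesis were below 0, with a median of -0.27, and their summed level was 860 FPKM in A549-Vector against 708 FPKM in A549-NICD1. FASN, fatty acid synthase, was at 241 and 187 FPKM, a difference of -0.31 (interval -0.33 to -0.29). ACACA, the acetyl-CoA carboxylase that supplies its malonyl-CoA, was at 34.2 and 26.5 FPKM, a difference of -0.31 (interval -0.35 to -0.28). The intervals of these enzymes overlapped. SCD, the desaturase that makes monounsaturated fatty acids, was at 303 and 247 FPKM, a difference of -0.24 (interval -0.25 to -0.23). ELOVL6, an elongase of saturated chains, was at 23.8 and 18.9 FPKM, a difference of -0.27 (interval -0.34 to -0.21). ACLY, which makes cytosolic acetyl-CoA for both pathways, was at 185 and 167 FPKM, a difference of -0.09 (interval -0.11 to -0.07). The desaturases of polyunsaturated fatty acids, neighbours on chromosome 11, were not alike. FADS2 was at 46.6 and 37.1 FPKM, a difference of -0.27 (interval -0.35 to -0.20). FADS1 was at 25.9 and 24.2 FPKM, with an interval of -0.10 to 0.01 that held 0 and did not overlap that of FADS2.

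Counting error was small beside most of these differences, but it is not the spread between cultures. The intervals reached a median of 0.059 to either side over the 31 genes. The interval lay wholly below 0 for 25 of the 31 genes, against 29.4% of all genes, and wholly above 0 for 2, against 28.5%. In total 57.9% of all genes tested had an interval clear of 0 between these single libraries, so an interval clear of 0 is common here.

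Other lipid genes, listed by role, had a median nearer to that of all genes. Of 54 such genes 50 had a mean of at least 1 FPKM, and 32 of these were below 0 (51.0% of all genes were), with a median log2 difference of -0.07. Of the 50, 5 were lower by 0.3 or more, a share like the 10.1% of all genes, 0 were higher by as much, and none reached 0.5 in either direction. CH25H was listed at 0 in both libraries, and ABCA1 and FNTB were under the minimum. DGAT2, which makes triglycerides, was also under it, at 1.03 FPKM in A549-Vector against 0.509 FPKM in A549-NICD1. It is named after its values were seen, because its difference of -0.85 (interval -1.44 to -0.50) was the lowest among these lipid genes without the minimum.

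The 5 genes of SREBP cleavage and INSIG turnover had a median of -0.01, with 3 below 0 and 2 above. MBTPS1 and MBTPS2, the Golgi proteases that release SREBPs, were at 43.4 and 12.9 FPKM in A549-Vector and at 39.1 and 12.8 FPKM in A549-NICD1, with differences of -0.09 and 0.04 after scaling. C12orf49, now named SPRING1, a partner of SCAP and MBTPS1, was at 14.4 and 12.2 FPKM, a difference of -0.18. Of the 11 genes tested for sterol uptake, storage and export, 9 were below 0, with a median of -0.09. VLDLR, a lipoprotein receptor, was at 2.13 and 1.45 FPKM, and ABCG1, a sterol exporter driven by liver X receptors, was at 2.998 and 2.05 FPKM. Their differences were -0.48 and -0.47. NR1H3, one of those receptors, was at 4.91 and 5.69 FPKM, and SCARB1, a lipoprotein receptor, at 35.1 and 36.3 FPKM, with differences of 0.26 and 0.10.

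The 7 genes tested of the isoprenoid branches, which draw on farnesyl diphosphate, had a median of 0.07, with 4 above 0. GGPS1, which makes geranylgeranyl diphosphate, was at 29.001 and 22.3 FPKM, a difference of -0.32, and PDSS2, of coenzyme Q synthesis, was at 6.88 and 6.17 FPKM. PDSS1, its partner subunit, was at 13.7 and 15.9 FPKM, a difference of 0.27, and DHDDS, of dolichol synthesis, at 12.3 and 13.3 FPKM. Of 16 genes tested of further lipid synthesis, 11 were below 0, with a median of -0.07. LPIN1, a phosphatidate phosphatase known as an SREBP target, had the lowest value, at 8.72 and 5.98 FPKM, a difference of -0.48 (interval -0.59 to -0.39). ACACB, the mitochondrial acetyl-CoA carboxylase, was at 2.80 and 2.21 FPKM, GPAM, which begins glycerolipid synthesis, at 9.73 and 10.7 FPKM, and HSD17B12, of chain elongation, at 41.4 and 43.8 FPKM. The 11 genes of fatty acid oxidation had a median of -0.09, with 6 below 0 and 5 above. PPARA, a nuclear receptor of fatty acids, was at 4.91 and 3.75 FPKM, and ACADS, a dehydrogenase of short chains, at 6.58 and 5.22 FPKM. ACADVL, the dehydrogenase of very long chains, was at 26.7 and 28.8 FPKM, and CPT1A, which admits fatty acids to mitochondria, at 9.75 and 9.99 FPKM.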

How the data were processed

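PolyA mRNA had been sequenced with strand kept in 1 A549-NICD1 and 1 A549-Vector library. The authors deposited 1 value per gene and library, read here as FPKM from the values since neither labels nor tables name the unit. The submitters' processing notes name Bowtie2, HTSeq and hg38; versions, annotation and the strand setting of the counting are not given in the sources used here. 27 of the 19225 rows carried a date number in place of a symbol and were dropped. Depth was found as the number at which values gave whole reads and lengths best matched GENCODE transcripts (301 exact lengths among 6168 genes, against 181 at the next factor). Reads are the fewest that both values allow at this depth (within 0.002 of a whole number, length at least 300 bases), which makes intervals widest for that depth. A549-NICD1 was divided by 0.962, a trimmed mean of log ratios (30% of ratios and 5% of levels trimmed at each end), and 0.1 FPKM was added before log2. Counts of genes used a mean of at least 1 FPKM. Groups came from the genotype labels. The Wald test of the study was not repeated, since 1 library a group leaves no spread to estimate. Every listed gene was named by role, and of each other lipid list the 2 highest and 2 lowest, except that 1 such gene and 1 marker are not reported here. Members and lists were chosen with earlier results of these data known. Sharing was measured in 100-base windows every 50 bases. Scripts used Python 3.11.15, pandas 2.3.3, NumPy 2.4.6 and SciPy 1.17.1 and were tested on simulated data.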

Additional observations from a re-analysis of the deposited data

How the results depend on the processing

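The 28 of 31 genes below 0 were 28 under each scaling (none, median centring, summed FPKM without NOTCH1 and RFC4), and no member changed sign. The other settings were pseudocounts of 1 and 0.01 FPKM, no filter, and a mean of at least 5 FPKM. They could not change this count. A pseudocount leaves the sign of a difference as it is, and all 31 genes averaged at least 5 FPKM. Over these 7 alternatives the median of the 31 genes ran from -0.27 to -0.21, and its distance from the median of all genes from -0.22 to -0.20. Scaling by none moved all genes by -0.06 and put 1 member, INSIG1, past 0.5 log2 units lower, against 0. A threshold of 0.3 put 9 past it. This count was 13 with no scaling, 11 with summed FPKM, and 7 with median centring or a pseudocount of 1 FPKM. A threshold of 1 put 0 past it. Without CYP51A1 and ACAT2, a choice made after seeing the data, 26 of 29 were below 0 and the median was -0.24. Of the other lipid lists, sterol uptake had 2 genes past 0.5 lower with no scaling and 1 with a pseudocount of 0.01 FPKM. Further lipid synthesis had 1 with no scaling, with summed FPKM and with no filter. Fatty acid oxidation had a median of -0.02 from 5 FPKM upwards. No paired analysis was possible because each group had 1 library, and no replicate could be left out. The depth gave each member at least 431 reads a library.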
